A study of Mus musculus with 6 samples.

Results

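The 5 genes described here encode transcription factors of the C/EBP family: Cebpa, Cebpb, Cebpd, Cebpg and Ddit3 (NCBI gene IDs 12606, 12608, 12609, 12611 and 13198). They are 5 of the 21887 mouse protein-coding genes of the gene table used. A chromatin peak was counted to a member when its summit lay inside the gene, or when no other coding gene had an end closer to it, up to a limit of 100 kb. By this rule 91 of the 192614 peaks in 6 lists belonged to the family, and they merged into 27 of 68913 regions. The members were named by family and not by their peaks.

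The peaks come from ATAC-seq, in which a transposase cuts and tags open DNA. The study took brown pre-adipocytes, the cells that give rise to brown fat cells, after the first day of differentiation and before it. The 3 day 1 libraries carry the treatment label of brown adipocyte differentiation at day 1, with no genotype given, and the 3 day 0 libraries are labelled WT. All 6 share the cell line label BAT, and none of their labels names a deleted gene, although the series title concerns deletion of RUNX1 or RUNX2. The genotype of the day 1 libraries is thus not known from the labels, and a genotype difference could not be told apart from the day. The labels give no composition of the differentiation medium and do not say whether replicates were separate cultures. The p-values therefore reflect how far these libraries spread, and that spread may be technical only.

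C/EBP proteins bind DNA as dimers through a basic region and a leucine zipper, and members can pair with each other and with relatives of the ATF family. In cultured pre-adipocytes Cebpb and Cebpd are known as early genes, switched on soon after hormonal induction, and their products help to activate Cebpa and Pparg, which then maintain the fat cell programme. Cebpg and Ddit3 encode partners of the others: C/EBPγ is a short member that lacks their activation domain, and CHOP, the product of Ddit3, is induced by stress and keeps its C/EBP partners from their usual sites.

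The DNA just before the start sites is shown first because the open regions at 4 of the genes lay on or beside it. Windows of 250 bases before the annotated start were taken from RefSeq, build GRCm38.p6, and 4 of 5 members matched an entry. Cebpa was read at chr7:35119043-35119292 on the plus strand, Cebpb at chr2:167688665-167688914 on the plus strand, Cebpg at chr7:35056567-35056816 on the minus strand and Ddit3 at chr10:127290543-127290792 on the plus strand. A further window, chr2:167777241-167777490 on the plus strand, precedes the long non-coding RNA Gm14321 and is shown because it overlaps the highest of the distal Cebpb regions described further on. Each runs 5′ to 3′ toward the start site, and capitals mark a match, on either strand, to any of the 9 short motifs named in the next paragraph.
Cebpa: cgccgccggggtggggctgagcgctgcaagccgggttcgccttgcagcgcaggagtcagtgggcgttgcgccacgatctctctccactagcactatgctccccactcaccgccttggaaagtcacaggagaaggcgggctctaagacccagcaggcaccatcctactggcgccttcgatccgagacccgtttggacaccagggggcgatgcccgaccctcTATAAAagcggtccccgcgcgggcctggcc
Cebpb: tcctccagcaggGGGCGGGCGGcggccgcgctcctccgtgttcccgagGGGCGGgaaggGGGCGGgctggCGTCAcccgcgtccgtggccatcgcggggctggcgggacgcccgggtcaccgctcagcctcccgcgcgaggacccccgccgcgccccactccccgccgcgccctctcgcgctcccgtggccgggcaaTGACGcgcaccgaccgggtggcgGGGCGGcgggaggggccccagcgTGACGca
Cebpg: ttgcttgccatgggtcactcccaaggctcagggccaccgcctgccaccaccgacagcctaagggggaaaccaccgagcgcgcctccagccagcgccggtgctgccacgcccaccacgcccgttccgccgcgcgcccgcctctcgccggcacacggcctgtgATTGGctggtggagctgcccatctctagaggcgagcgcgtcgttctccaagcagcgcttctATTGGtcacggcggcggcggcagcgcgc
Ddit3: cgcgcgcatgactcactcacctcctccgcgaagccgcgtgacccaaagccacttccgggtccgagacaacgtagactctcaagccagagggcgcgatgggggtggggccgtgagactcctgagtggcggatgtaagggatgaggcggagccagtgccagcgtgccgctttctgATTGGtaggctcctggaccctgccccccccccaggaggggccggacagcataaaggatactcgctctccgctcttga
Gm14321: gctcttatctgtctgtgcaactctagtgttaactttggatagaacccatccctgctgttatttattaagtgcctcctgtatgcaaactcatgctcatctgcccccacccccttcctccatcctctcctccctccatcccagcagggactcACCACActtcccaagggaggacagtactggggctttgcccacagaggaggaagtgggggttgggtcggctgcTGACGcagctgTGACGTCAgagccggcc

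The windows of the family were rich in G and C. GC content was 81.6% for Cebpb, 70.8% for Cebpg, 66.4% for Cebpa, 64.8% for Ddit3 and 56% for Gm14321, against a median of 52.4% over all 32851 windows of the table. The Cebpb window held the GC box GGGCGG 5 times, 2 of them overlapping each other, and this motif stood in 32.7% of all windows. It also held 3 copies of TGACG, the shared core of cyclic AMP response elements, starting 180, 53 and 7 bases before the start, a motif found in 17.8% of windows. Cebpa had the only TATA box, TATAAA, 30 to 25 bases before its start (12.4% of windows). Cebpg held the CCAAT box CCAAT on the reverse strand 2 times and Ddit3 held it 1 time (33.8% of windows). The Gm14321 window had a whole cyclic AMP response element, TGACGTCA, 17 to 10 bases before the start, which 1.55% of all windows hold. That element contains 2 of the window's 3 TGACG matches, since TGACG can be read on each of its strands. A RUNX motif, TGTGGT, stood in the same window 100 to 95 bases before the start (14.05% of windows). Of the summits of that distal region only 1, that of day 1 replicate 3, lay in this window. Windows before starts of the long non-coding RNA Gm32287 in the same region, not printed, held further matches. These were a second TGACGTCA 122 to 115 bases before the start at 167777927, and TGTGGT and the E-box CACGTG before the start at 167777712. The C/EBP palindrome TTGCGCAA (0.164% of windows), the C/EBP-ATF composite TGATGCAA (0.791%) and the E-box CACGTG (6.02%) had no match in the 5 windows printed. A match here describes letters only.

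Depth differed between the days. The lists came from 4919755, 5603667 and 7302457 fragments at day 1 and from 11011889, 8127635 and 9160156 fragments at day 0, and held 12556 to 23274 peaks at day 1 and 39211 to 55511 at day 0. Day 1 replicate 3 stood apart, with the shortest list and the lowest summits in regions shared by all libraries (a median of 1.78 fragments per 1000000 fragments of the library, here FPM, against 2.62 to 3.94 FPM in the other 5). Results are therefore also given on equal lists, which keep the 12556 strongest peaks of each library by q value. In these, absence means a lower rank. Of 7 pre-adipocyte marker genes, 0 had a peak within 1 kb of a gene end in all 3 day 1 libraries and 3 had it in all 3 day 0 libraries, while Dlk1 had no peak on either day. Of 5 brown adipocyte markers 0 had such a peak in all 3 libraries of either day, and Ucp1 had no assigned peak in any library. Endothelial and immune lists of 3 genes each had 0 genes with it at day 1 and 1 each at day 0 (Kdr and Cd68), and muscle and epithelial lists had 0. Endothelial markers moved with the day in peak number in both kinds of list. Summed over Pecam1, Cdh5 and Kdr, the day 1 deposited lists held 5, 2 and 0 endothelial peaks and those of day 0 held 11, 12 and 10, and the day 1 equal lists held 2, 0 and 0 and those of day 0 held 4, 4 and 3. All 3 genes had every day 1 library below every day 0 library in deposited lists, a gap found for 32.7% of coding genes with a peak. In equal lists 1 had it, Pecam1, against 6.52% of coding genes with a peak in those lists. Each of the 3 also had 1 region found only at day 0 in equal lists, a class that held 9.11% of all regions (a share of regions, not of genes). The same gap in deposited lists was found for 4 of 7 pre-adipocyte, 0 of 5 brown adipocyte, 2 of 3 immune, 1 of 3 muscle and 2 of 3 epithelial markers, and in equal lists for 0 of each. The part of other cells in the results was not tested.

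The first comparison asks how many open sites each C/EBP gene had on each day. In the deposited lists the day 1 libraries held 11, 14 and 8 family peaks, and the day 0 libraries held 24, 15 and 19. The mean was 11.0 ± 3.00 at day 1 and 19.3 ± 4.51 at day 0 (SD, n = 3 each), and every day 1 library held fewer than every day 0 library. Depth moved with the day, and its part in this difference was not tested. Set against the length of each list, the order turned round, with 5.48, 6.02 and 6.37 family peaks per 10000 peaks at day 1 and 4.32, 3.57 and 4.85 at day 0. In equal lists each day 1 library held 8, and the day 0 libraries held 8, 8 and 9. No test was made on a total over the members.

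**Figure D1:**
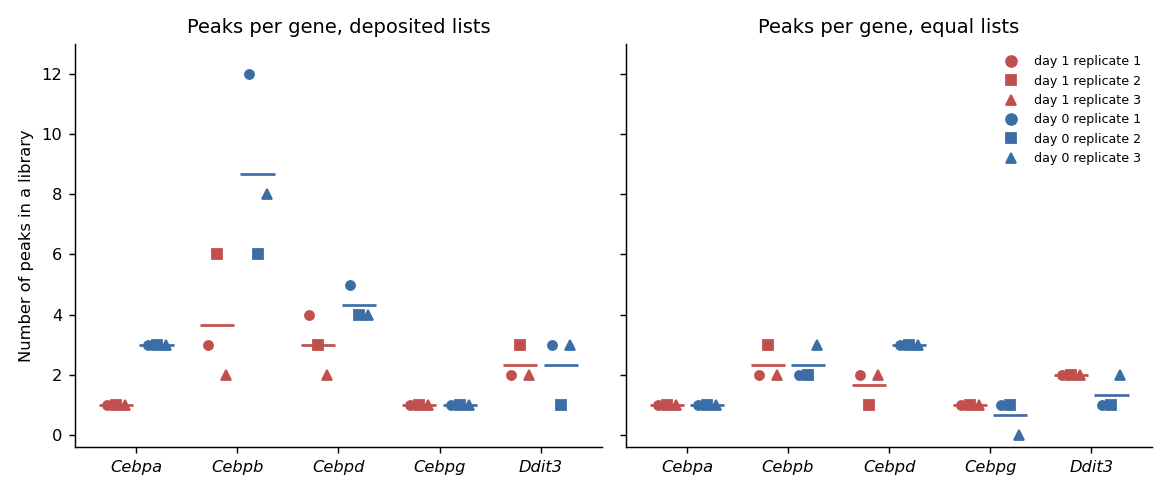
Number of peaks counted to each C/EBP gene in each library, in the deposited lists (left) and in equal lists of 12556 peaks (right), with day 1 in red, day 0 in blue, 1 symbol per replicate and a bar at the mean. In the deposited lists Cebpa stands at 1 in the day 1 libraries and at 3 in the day 0 libraries, and in equal lists Cebpd is the gene whose days do not overlap. That Cebpd gap was lost with a limit of 50 kb and with the other list lengths tried.

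Cebpa had 1 peak in each day 1 library and 3 in each day 0 library of the deposited lists. Its exact permutation p was 0.1 (two-sided, n = 3 each), the smallest that 3 libraries against 3 allow, and 0.304 after Benjamini-Hochberg adjustment over 15530 genes. Such a gap, with every day 1 library below every day 0 library, was found for 1 of the 5 members and for 32.7% of all coding genes with a peak. The opposite gap was found for 0 members and 0.212% of genes. In equal lists each library held 1 Cebpa peak, but not the same one: it was the start region in all 3 day 1 lists and in day 0 replicates 1 and 2, and the region 8.01 kb past the start in day 0 replicate 3.

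Cebpb had the most sites, with 3, 6 and 2 peaks at day 1 and 12, 6 and 8 at day 0 (exact permutation p = 0.2, adjusted p = 0.529, n = 3 each). The days overlapped at 6 peaks. In equal lists it had 2, 3 and 2 peaks at day 1 and 2, 2 and 3 at day 0.

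Cebpd had 4, 3 and 2 peaks at day 1 and 5, 4 and 4 at day 0 in the deposited lists (exact permutation p = 0.3, adjusted p = 0.670, n = 3 each). In equal lists it had 2, 1 and 2 at day 1 and 3, 3 and 3 at day 0, a difference of -1.33. The days did not overlap there, with an exact permutation p of 0.1 and an adjusted p of 0.795 over 11615 genes (n = 3 each). Among all genes of the equal lists 6.52% had every day 1 library below every day 0 library and 6.06% the reverse, against 1 and 0 of the 5 members. The Cebpd gap was lost with a limit of 50 kb (-0.333) and with lists of 6278 peaks (-0.667, exact permutation p = 0.7). It was also lost with lists of 20069 peaks and day 1 replicate 3 left out (-0.667, exact permutation p = 0.7). It held with lists ranked by fold enrichment (-1, exact permutation p = 0.1). With −log10 q of at least 5 the difference was -2 (exact permutation p = 0.1). That filter took family peaks from day 1 equal lists only, with a mean of 7 in place of 8 at day 1. The day 0 mean stayed at 8.33, so the filter could not close the gap. Leaving out 1 library at a time cannot bring an overlap about, so it does not test the gap, and the differences ran from -1.5 to -1.

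Cebpg had 1 peak in each of the 6 deposited lists, and in equal lists the peak dropped out in day 0 replicate 3 only. Ddit3 had 2, 3 and 2 peaks at day 1 and 3, 1 and 3 at day 0 (exact permutation p = 1, n = 3 each). In equal lists Ddit3 had 2, 2 and 2 at day 1 and 1, 1 and 2 at day 0 (exact permutation p = 0.4, n = 3 each). The days overlapped for both genes in both kinds of list. No coding gene reached an adjusted p under 0.05 in either kind of list (smallest 0.304 in deposited and 0.795 in equal lists), although 5107 and 1461 genes had an unadjusted exact p of 0.1, which is above 0.05 as every p in this design is.

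The second comparison concerns regions with a peak on a single day. Of the 27 family regions, 5 lay at a gene end, that is within 1 kb of the start or end of the gene, and 22 were distal. A peak in all 6 libraries was found for 6 of the 27, against 13.3% of all regions. In 3 of 3 day 1 and 0 of 3 day 0 libraries there were 0 family regions, against 0.607% of all regions. In 0 of 3 day 1 and 3 of 3 day 0 libraries there were 4 (2 of Cebpa and 2 of Cebpb), against 17.5% of all regions. A peak was missing from every day 1 library in 12 regions, all of them distal, against 59.0% of all regions. Of the 27 regions, 10 rested on a single library, and 7 of these on day 0 replicate 1, which had the most fragments.

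In equal lists 12 of the 27 regions were in some list and 15 in none. A region found in all 3 day 1 and no day 0 lists was seen 0 times, against 5.71% of 23438 regions. The reverse was seen 1 time, at Cebpd, against 9.11%. With day 1 replicate 3 left out and lists of 20069 peaks, the counts were 1 for day 1 only, at the Cebpb gene end, and 0 for day 0 only. The share of all regions was not computed for that setting, so these counts have no background to be read against.

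Of the early genes, Cebpb encodes the factor that starts the cascade and occupies 1518 bp of chromosome 2 (167688915-167690432). Its own start, chr2:167688820-167689226, had summits of 2.64 and 3.93 FPM in day 1 replicates 1 and 2, and of 1.36 and 1.23 in day 0 replicates 1 and 2. The third library of each day listed no peak there. Among libraries with a peak, those of day 1 were the higher ones, and the days did not overlap. These are low peaks, of 13 and 22 fragments at day 1 and 15 and 10 at day 0, ranked 15385 and 7628 in the day 1 lists and 42159 and 40071 in the day 0 lists. Their summits lay 25 and 112 bp inside the gene at day 1 and 24 and 23 bp inside it at day 0, while the highest summits of the other members lay outside the gene, before the start (for Cebpd, below its lower-coordinate end).

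**Figure D2:**
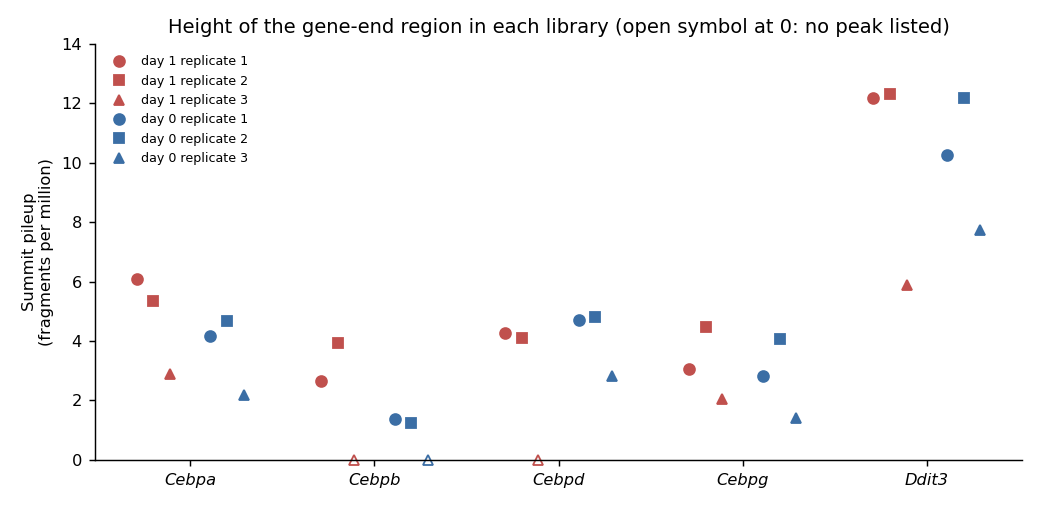
Summit pileup in fragments per 1000000 (FPM) at the gene-end region of each C/EBP gene, with day 1 in red to the left of day 0 in blue and 1 symbol per replicate. Open symbols at 0 mean that no peak was listed, which was the case for Cebpb in replicate 3 of both days and for Cebpd in day 1 replicate 3, and replicate 3 is the lowest listed value of its day for the other 3 genes.

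The strongest Cebpb sites lay far beyond the gene, in the interval of 240 kb before the next coding gene, Ptpn1. The region at chr2:167777292-167778091, 88.8 kb past the start, had 5.08, 4.997 and 1.51 FPM at day 1 and 7.26, 7.63 and 4.04 at day 0. The mean was 3.86 ± 2.04 FPM at day 1 and 6.31 ± 1.98 FPM at day 0 (SD, n = 3 each). Day 1 replicate 3 was the lowest, and the days overlapped between the upper day 1 libraries and day 0 replicate 3. This region holds the annotated starts of 2 long non-coding RNAs, Gm14321 on the plus strand and Gm32287 on the minus strand, and the cyclic AMP response element printed above lies between the start of Gm14321 and one of the starts of Gm32287. The summits in day 1 replicates 1, 2 and 3 lay at 167777604, 167777663 and 167777422, and those of day 0 at 167777709, 167777663 and 167777667. By annotation it is thus also a start region of these RNAs. Which gene the region acts on was not measured.

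The region 76.3 kb past the start, chr2:167765018-167765712, had 4.68, 3.57 and 1.78 FPM at day 1 and 3.63, 4.68 and 3.38 at day 0. It overlapped between the days, with means of 3.34 ± 1.46 FPM at day 1 and 3.897 ± 0.685 FPM at day 0 (SD, n = 3 each), and it was also in all 6 equal lists, as was the region at 88.8 kb. Both stood higher than the Cebpb gene end in the libraries that listed all of them, except that the gene end reached 3.93 in day 1 replicate 2, above the 3.57 at 76.3 kb.

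Both Cebpb regions found only at day 0 were low. The region 24.7 kb past the start, chr2:167713534-167713984, had no peak at day 1 and 1.73, 1.97 and 1.64 FPM in the day 0 libraries. The region at 72.9 kb, chr2:167761388-167761974, had no peak at day 1 and 2.00, 1.72 and 1.31 FPM at day 0. A site 9.16 kb past the start, chr2:167697928-167698249, had 1.43 FPM in day 1 replicate 2 alone and 1.63, 1.97 and 2.07 in the day 0 libraries. All 3 sites were thus seen in every day 0 library and in at most 1 day 1 library. The remaining 7 Cebpb regions were in at most 1 day 1 and at most 2 day 0 libraries, with no value above 2.54.

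**Figure D3:**
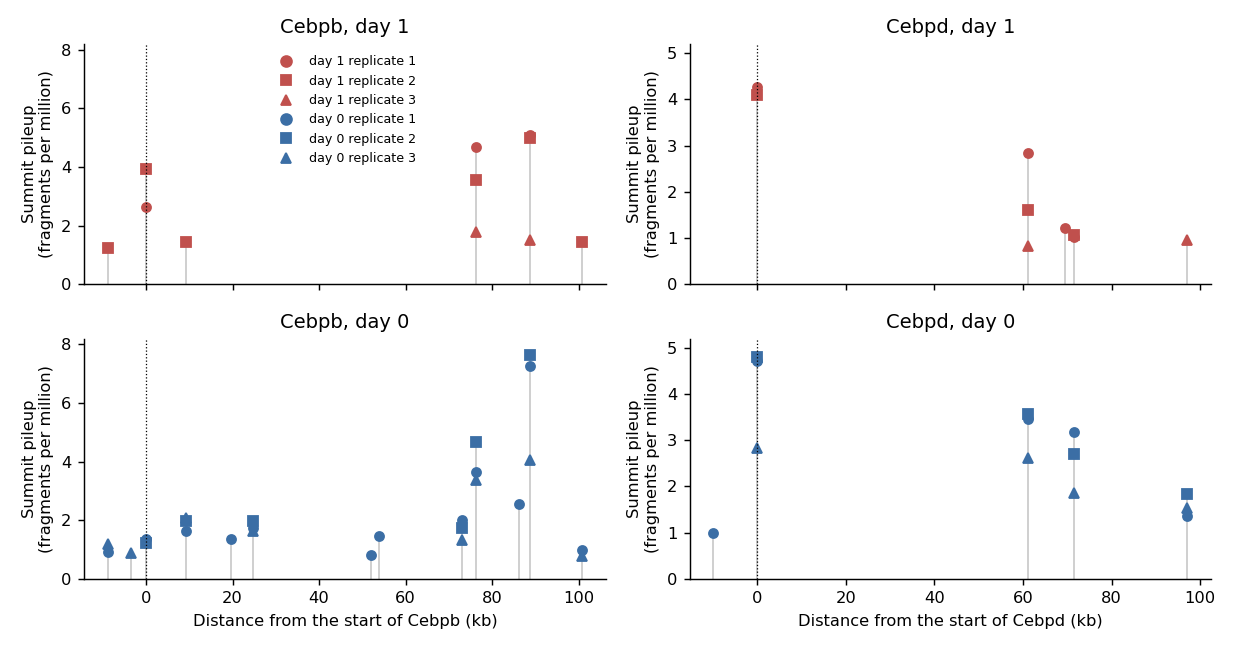
Summit pileup in fragments per 1000000 (FPM) of each region counted to Cebpb (left) and Cebpd (right) against distance from the start of the gene in kb, for the day 1 libraries above and the day 0 libraries below, 1 symbol per replicate. The highest Cebpb values stand 76.3 and 88.8 kb past the start and not at the gene, and at Cebpd the sites at 61.1 and 71.5 kb are lower in the day 1 panel.

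Cebpd, which encodes the other early factor, spans 2260 bp of chromosome 16 (15887286-15889545), and distances are from its lower-coordinate end. Its gene-end region, chr16:15886779-15887667, had 4.27 and 4.10 FPM in day 1 replicates 1 and 2, and 4.72, 4.80 and 2.84 in the day 0 libraries. The days overlapped, and day 1 replicate 3 listed no peak. Scaled from the mean of day 0, that library would have held 30.1 fragments there by its total and 15.3 by its median in shared regions, against a lowest listed pileup of 5.

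The Cebpd region at chr16:15948230-15948715, 61.1 kb from that end and inside the neighbouring gene Spidr, had a peak in all 6 libraries. It reached 2.85, 1.61 and 0.822 FPM at day 1 and 3.45, 3.57 and 2.62 at day 0, from 14, 9 and 6 fragments and from 38, 29 and 24. The mean was 1.76 ± 1.02 FPM at day 1 and 3.21 ± 0.517 FPM at day 0 (SD, n = 3 each). Day 1 replicate 1 lay above day 0 replicate 3, and the other day 1 libraries lay below every day 0 library. The authors' fold enrichment over local background, which varies with depth, was 9.74, 6.85 and 4.51 at day 1 and 16.4, 14.8 and 12.6 at day 0.

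A second site in Spidr, chr16:15958581-15959035 at 71.5 kb, had 1.02 and 1.07 FPM in day 1 replicates 1 and 2, none listed in replicate 3, and 3.18, 2.71 and 1.86 in the day 0 libraries. The days did not overlap. The day 1 peaks held 5 and 6 fragments, close to the lowest value listed, and ranked 18658 and 20580, whereas the day 0 peaks ranked 6907, 10269 and 9453. This is the family region found only at day 0 in equal lists. Spidr, which encodes a DNA repair scaffold protein, overlaps Cebpd by 322 bp and contains all Cebpd regions from 61.1 kb on. The farthest, at 97.2 kb (chr16:15984300-15985650), had 0.959 in day 1 replicate 3 alone and 1.36, 1.85 and 1.53 at day 0. Cebpd also had 2 regions resting on 1 library each, at 69.6 kb in day 1 replicate 1 and at -9.94 kb in day 0 replicate 1.

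Cebpa, which encodes the later factor that sustains the fat cell state, spans 2636 bp of chromosome 7 (35119293-35121928). Its start region, chr7:35118490-35119680, had 6.10, 5.35 and 2.88 FPM at day 1 and 4.18, 4.68 and 2.18 at day 0. The mean was 4.78 ± 1.69 FPM at day 1 and 3.68 ± 1.32 FPM at day 0 (SD, n = 3 each). Day 1 replicates 1 and 2 were the highest of the 6 libraries, and day 1 replicate 3 lay within the day 0 range. The summits stood 86 to 153 bp before the start at day 1 and 106 to 167 bp before it at day 0. In rank the peak stood at 2515, 4398 and 3048 in the day 1 lists and at 6187, 4504 and 12749 in the longer day 0 lists.

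The other Cebpa regions were found only at day 0. The first, 27.5 kb before the start at chr7:35091692-35091940 inside the non-coding RNA Gm35611, had no peak at day 1 and 1.45, 0.615 and 0.873 FPM at day 0. The second, 8.01 kb past the start at chr7:35127177-35127400, had no peak at day 1 and 1.63, 1.60 and 1.86 FPM at day 0. Both were lower than the start region in every day 0 library.

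Low height and shallow libraries met at the 4 regions found only at day 0. Scaled from the mean of day 0, they would have held 4.82 to 12.98 fragments in the day 1 libraries by fragment total, and 3.75 to 11.5 by the median of shared regions. The lowest pileup listed in a day 1 library was 4 or 5, and 3.01% to 55.8% of the peaks in those lists were as low as the heights scaled by total. At these heights a lost site and a site missed for depth cannot be told apart from peak lists.

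Of the partner genes, Cebpg spans 10145 bp of chromosome 7 on the minus strand (35046422-35056566), 62.7 kb from Cebpa. Its only region, chr7:35056207-35056826 at the start, had 3.05, 4.46 and 2.05 FPM at day 1 and 2.82, 4.06 and 1.42 at day 0. The days overlapped, with means of 3.19 ± 1.21 FPM at day 1 and 2.76 ± 1.32 FPM at day 0 (SD, n = 3 each), and summits lay 31 to 91 bp before the start on both days. The coding gene Gm45095 overlaps Cebpg by 1084 bp across this region, so the peak cannot be given to either gene alone.

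Ddit3 spans 5499 bp of chromosome 10 (127290793-127296291) and had the highest start region of the family. That region, chr10:127289252-127291457, had 12.2, 12.3 and 5.89 FPM at day 1 and 10.3, 12.2 and 7.75 at day 0. The days overlapped, with replicate 3 the lowest on each and means of 10.1 ± 3.68 FPM at day 1 and 10.1 ± 2.22 FPM at day 0 (SD, n = 3 each). It ranked between 689 and 835 in the day 1 lists and between 877 and 1287 in the day 0 lists, and its highest summits lay 114 to 177 bp before the start. Mbd6, a gene on the opposite strand, overlaps Ddit3 by 77 bp, and the region holds 2, 2 and 2 peaks at day 1 and 1, 1 and 3 at day 0, so here the number of peaks counts parts of 1 merged region. The other 3 Ddit3 regions rested on 1 library each, 1 of day 1 and 2 of day 0, at ranks near the end of their lists. The day 1 region, chr10:127288609-127288911, holds an annotated start of Mbd6 at 127288881, so by annotation it is a start region of Mbd6. A further Mbd6 start, at 127289018, lies between it and the Ddit3 start region.

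The third comparison asks whether open regions present in all libraries changed in height. The height of a region is its highest pileup, divided by the library's median over the 9136 regions with a peak in all 6 libraries, and log2 values were compared with limma and Benjamini-Hochberg adjustment over those regions. Among them 7.3% were higher at day 1 and 5.9% lower at an adjusted p under 0.05, against 0 and 1 of the 6 family regions. Over all 9136 the difference had a median of 0.059 and ran from -0.74 to 0.80 between the 5th and the 95th percentile.

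The Cebpd region at 61.1 kb fell by 0.82 ± 0.23 on the log2 scale (SE, n = 3 each, limma adjusted p = 0.0247), below the 5th percentile of all regions. In a bulk library, fewer cells with the site open and a less open site per cell cannot be told apart. The call was lost when day 1 replicate 2 or 3 or any day 0 library was left out (adjusted p from 0.0600 to 0.110, difference from -0.85 to -0.62), and it held without day 1 replicate 1 (-1.10, adjusted p = 0.00218). The call was also lost with heights scaled to fragment totals (-1.03, adjusted p = 0.354), a scaling that moved the median of all regions to -0.15. Without day 1 replicate 3, which listed no peak there, the site at 71.5 kb could be fitted too. It was lower at day 1 by a log2 difference of -1.32 ± 0.22 (limma adjusted p = 0.000542 over 12469 regions). Its day 1 heights were only 5 and 6 fragments, close to the lowest pileup of 4 in those lists. In that fit the Cebpd gene end differed by 0.016 ± 0.22 (adjusted p = 0.973).

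The Cebpb region at 88.8 kb differed by -0.64 ± 0.22 and the Cebpa start by 0.59 ± 0.20 (SE, n = 3 each), and neither passed (limma adjusted p = 0.0659 for each). For the Cebpb region the adjusted p was 0.0436 without day 1 replicate 1, and without day 1 replicate 3 the difference was -0.32 (adjusted p = 0.372). A fit whose prior variance follows height gave adjusted p values of 0.0167 for the Cebpb region and 0.0299 for the Cebpa start. The Cebpg start differed by 0.47 ± 0.24 (adjusted p = 0.222), the Ddit3 start by 0.17 ± 0.19 (adjusted p = 0.637) and the Cebpb region at 76.3 kb by -0.10 ± 0.21 (adjusted p = 0.815). The sign of the Ddit3 start turned with heights scaled to fragment totals (-0.044), and that of the Cebpb region at 76.3 kb turned without day 1 replicate 3 (0.035).

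**Figure D4:**
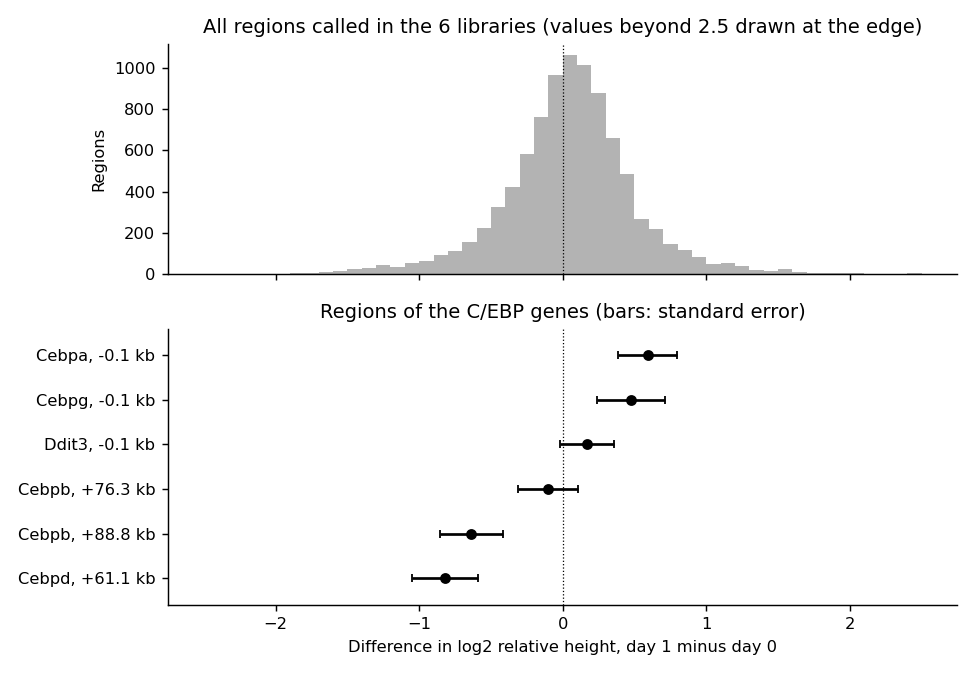
Difference in log2 relative height, day 1 minus day 0, for all 9136 regions with a peak in all 6 libraries (histogram above) and for the 6 C/EBP regions among them (points below, with bars of 1 standard error). The 3 start regions of Cebpa, Cebpg and Ddit3 lie to the right of 0 and the 3 distal regions of Cebpb and Cebpd to the left, although the sign of Ddit3 turns with scaling to fragment totals and that of Cebpb at 76.3 kb without day 1 replicate 3, and the limma adjusted p is under 0.05 for the Cebpd region alone.

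Genes around the family were taken from 4 lists. Of 7 known inducers of Cebpb or Cebpd (Creb1, Nr3c1, Stat3, Stat5a, Stat5b, Klf4 and Egr2), 2 had every day 1 library below every day 0 library in the deposited lists, Stat5b and Klf4. That share is near the 32.7% of coding genes with a peak, although the list also counts Egr2, which had no peak. In equal lists 0 lay below and 0 above, against 6.52% and 6.06% of genes with a peak in those lists. Klf4, which encodes a zinc finger factor that acts on Cebpb in early adipogenesis, had 3, 2 and 0 peaks at day 1 and 7, 8 and 7 at day 0. The median difference of the list was -2 peaks, beside -1 over genes with a peak. In equal lists it was 0.333, beside 0 over genes with a peak in those lists.

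Of 8 bZIP relatives and Tribbles genes, which encode dimer partners and pseudokinases that promote C/EBP breakdown, 3 lay below in the deposited lists (Cebpe, Atf3 and Trib2), 0 above, and 0 either way in equal lists. Atf3 had 2, 3 and 1 peaks at day 1 and 11, 7 and 8 at day 0. Of 9 stress genes around Ddit3, 3 lay below (Atf6, Eif2ak3 and Hspa5), 0 above, and 0 either way in equal lists. Atf4 and Trib3 stand in both of these lists. Both shares are near the 32.7% of genes with a peak that lay below in deposited lists. The medians were -1.50 and -0.667 peaks in deposited lists and 0.333 for both in equal lists.

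Of 11 adipocyte targets of C/EBP and PPARγ, 4 lay below in the deposited lists (Pparg, Lep, Cfd and Ppargc1a) and 1 above, Cidec. The shares over genes with a peak were 32.7% and 0.212%, while the 11 include Slc2a4 and Ucp1, which had no peak. In equal lists 0 lay below and 3 above, against 6.52% and 6.06% of genes with a peak in those lists. These 3 are the genes of the 4 lists whose days did not overlap there. Each had the exact permutation p of 0.1 and an adjusted p of at least 0.795. Fabp4, the fatty acid carrier of adipocytes, had 2, 1 and 2 peaks in the day 1 equal lists and 0 in each at day 0. Scd1, a fatty acid desaturase, had 3 in each at day 1 and 1 in each at day 0. Cidec, a lipid droplet protein, had 1, 1 and 2 at day 1 and 0 in each at day 0, and its gene end had a peak in 3 of 3 day 1 and 0 of 3 day 0 deposited lists. The Fabp4 gene end, by contrast, was listed in 2 day 1 and 3 day 0 libraries, so its absence from the day 0 equal lists is one of rank. The list's medians were -1 in deposited and 0 in equal lists, the same as over genes with a peak.

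Gene-end peaks in all 3 libraries of a day were found for 3 of the 5 members on day 1 (Cebpa, Cebpg and Ddit3) and for 4 on day 0, Cebpd being the fourth. Over all coding genes the shares were 24.4% on day 1 and 36.2% on day 0. Among the genes around the family, 2 of 7 inducers, 5 of 8 relatives, 6 of 9 stress genes and 2 of 11 targets had such a peak on day 1, and 3, 5, 8 and 4 of them had it on day 0.

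Likeness in peak number was measured as the mean absolute difference in peaks per library over the 6 deposited lists. Ties were broken by likeness in height. For Cebpb, 3 coding genes were tied as nearest at 0.333 peaks. Of these Tmeff2, nearest in height, had 3, 5 and 2 at day 1 and 12, 7 and 8 at day 0. For Cebpd, 2 genes were tied at 0.167, of which Slc15a1 was nearest in height, with 3, 3 and 2 at day 1 and 5, 4 and 4 at day 0. For Ddit3, 7 were tied at 0.167, of which Arhgap19 was nearest in height. For Cebpa, 38 genes had the same 6 numbers, of which Rhbdd2 was nearest in height. For Cebpg, with 1 peak throughout, 1236 genes were tied, of which Zfp397 was nearest in height.

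The limit of 100 kb set which distal sites were counted. Just inside it lay the Cebpd region 94.9 kb and a Cebpb region 99.2 kb from the nearest gene end. Just outside it lay a Cebpd region at 103 kb, listed in 0 day 1 and 3 day 0 libraries, and Cebpb regions at 109.8 kb and 110.4 kb, listed in 0 day 1 and in 1 and 3 day 0 libraries.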

How the data were processed

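Per the file headers, the authors called peaks in each library with MACS2 2.2.7.1 on paired-end fragments, without a control library and at a q cutoff of 0.05. The submitters' processing notes name mm10, Trim Galore 0.6.7, Bowtie2 2.4.4 and SAMtools 1.15.1, with no roles. The deposited pileup is a signal, the number of fragments over the summit, unscaled for library size. The deposited −log10 p and −log10 q values and the fold enrichment, a ratio, compare it with the background around the peak within 1 library, so they vary with depth. They describe and rank peaks within a list. The length of a peak in bp is also as deposited.

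Peaks were counted to genes of the GRCm38.p6 table, whose build mm10 names, and overlapping peaks (1 bp or more), whatever their library, were joined into regions. The gene table gives no exons, so exon, intron and UTR positions are not given. FPM values divide a pileup by the fragment total in the header, per 1000000 fragments. Peak numbers per gene were tested with an exact permutation of the 6 libraries, two-sided, with Benjamini-Hochberg adjustment. Heights were compared with limma 3.58.1 in R 4.3.3, adjusted over 9136 regions at a threshold of 0.05. This fit needs a peak in every library, so a region that a library lost is not in it. Other steps used Python 3.11.15, pandas 2.3.3 and numpy 2.4.6, and the steps were tested on simulated data. In simulated heights the fit recovered 42% of planted log2 changes of 1 and 98% of those of 2. That simulation held counting noise only and no further spread between replicates, so it does not give the power in these libraries.

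The members and lists were chosen with earlier results of these data known. Named genes are the members, genes of the 4 C/EBP lists whose days did not overlap in equal lists, and the gene nearest to each member in peak number, with ties broken by height. List genes that did not overlap in the deposited lists, and the markers Dlk1, Ucp1, Pecam1, Cdh5, Kdr and Cd68, were named after their values were seen. The Gm14321 window was chosen after its peak was seen. The labels do not say whether replicate numbers pair the libraries, and the main fits did not pair them. The correlation of same-numbered deviations over the shared regions was -0.0365, 0.0544 and 0.00808. That does not settle pairing, and replicate 3 had the lowest median height in shared regions on each day (1.78 FPM at day 1 and 2.62 FPM at day 0). No library was a copy of another, with at most 3 identical peaks between any 2.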

Additional observations from a re-analysis of the deposited data

How the results depend on the processing

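Of the values that answer a comparison, 70 kept their reading and 9 moved. The 70 include the family totals with the replicate block, which equal the main totals by construction, so the tally does not measure stability. Scaling heights to fragment totals left 38 regions higher and 121 lower at day 1, in place of 667 and 539, and turned the Ddit3 start to -0.044. With −log10 q of at least 5, 350 of 6743 regions were lower, and the family total in equal lists differed by -1.33 peaks, in place of -0.333. That total was 0.667 with a limit of 50 kb and 0.667 with lists ranked by fold enrichment. Leaving out each library in turn gave 449 to 936 regions higher and 368 to 1077 lower, with 1077 without day 1 replicate 3. The Cebpb region at 76.3 kb ran from -0.24 to 0.035, above 0 without that library. It gave family totals of -10.5 to -6 in deposited and -0.50 to 0 in equal lists. Leaving out day 1 replicate 3 with lists of 20069 peaks, chosen after seeing the data, gave 1 family region of day 1 only and 0 of day 0 only, with no share over all regions computed. With the replicate block, 688 regions were higher and 565 lower, the totals differed by -8.33 and -0.333, and the sign-flip p could not go below 0.25. The labels do not say whether the numbers pair the libraries, and the block changed the call of the Cebpb region at 88.8 kb (limma adjusted p = 0.0460) and of no other family region. The Cebpd region at 61.1 kb and the Cebpb region at 88.8 kb missed −log10 q of 5 in a library and have no value there. The causes of these changes were not tested. Depth limits the absence of low peaks at day 1, and 3 libraries per day limit every test of peak number.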

Other observations

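Between Cebpg and Cebpa, 3 further weak regions were counted to Gm45095 because its end was nearer. They lay 19.2, 23.4 and 29.2 kb from it, were listed in 0 day 1 libraries and in 2, 2 and 1 day 0 libraries, and held at most 7, 8 and 7 fragments.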
